A study of Homo sapiens with 18 samples.

Results

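Metalloproteases of the metzincin clan and their tissue inhibitors were followed here at the mRNA level in MDA-MB-231 cells, a human breast cancer line. The members were selected by symbol and by a measured value: an MMP, ADAM, ADAMTS, ADAMTSL or TIMP symbol followed by a number, and a mean level of at least 0.5 CPM over the 18 libraries. CPM are counts scaled to a common library total, so that libraries of different depth can be compared. Of 60642 gene symbols in the count files, 71 fitted the name pattern and 32 of these reached the minimum. The 32 were 8 MMP, 9 ADAM, 8 ADAMTS, 3 ADAMTSL and 4 TIMP genes, and all 32 passed the filter on low counts and were tested. Just inside the minimum lay MMP17 at 0.63 and ADAM11 at 0.885 CPM, and just outside it ADAMTSL3 at 0.422 and MMP24 at 0.27 CPM. In each of the 6 conditions at least 30 of the 32 kept a mean of 0.5 CPM, and MMP3 and MMP17 were the members under it in siNS and siPRMT5 cells with Dex. ADAMTS15 was named in the selection because it rose most after PRMT5 depletion, so its difference in that contrast is given as a description with no test.

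These enzymes share a catalytic zinc and together can cut most proteins of the extracellular matrix and many at the cell surface. MMPs cleave collagens, gelatin and other matrix proteins. ADAMs are membrane proteins that release the outer part of growth factors, cytokines and receptors, and the secreted ADAMTS enzymes act on proteoglycans, procollagens and microfibrils. ADAMTSL proteins resemble ADAMTS enzymes but have no protease domain, and TIMPs bind the active site of the enzymes and block it. In breast cancer cells the balance of these enzymes and inhibitors is known for its part in invasion and in growth factor release. A level of mRNA says nothing of secretion, activation or inhibition of the protein.

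The cells received a non-specific siRNA (siNS), a siRNA pool against HP1γ (siHP1γ, gene CBX3) or a pool against PRMT5 (siPRMT5), and then vehicle ethanol (Eth) or 100 nM dexamethasone (Dex) for 8 h. Dex is a synthetic agonist of the glucocorticoid receptor (GR), HP1γ is a chromatin protein and PRMT5 an arginine methyltransferase, and the study asked how both act on GR target genes. Each of the 6 conditions (siNS Eth, siNS Dex, siHP1γ Eth, siHP1γ Dex, siPRMT5 Eth and siPRMT5 Dex) had 3 replicate libraries, 18 in all. All libraries came from 1 line that carries its own GR, each target was depleted with 1 siRNA pool, and the depletion was transient. The study calls the replicates biological. The labels do not tie a replicate to a culture, so the p-values measure the spread between these libraries.

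Depth ran from 8682992 to 12472381 counted reads per library. The targeted mRNAs were low where their siRNA had been given: PRMT5 mean levels were 249 CPM in siNS Eth and 7.41 CPM in siPRMT5 Eth, and CBX3 stood at 256 CPM in siNS Eth and 9.89 CPM in siHP1γ Eth. PRMT5 was also lower after HP1γ depletion, by a log2 difference of -0.25 ± 0.07 (edgeR adjusted p = 0.0111) without Dex and -0.35 ± 0.07 (edgeR adjusted p = 0.00123) with Dex. Markers of a mesenchymal triple-negative line were high in every library (VIM, CD44, AXL, CAV1, EGFR and NR3C1, the GR gene), while ESR1, PGR and CDH1 had at most 2 counts in a library. Of the genes listed as low in this line, ERBB2 (24.1 to 35.1 CPM) and GATA3 (2.71 to 7.63 CPM) were not at 0. Among 8 markers of leukocytes, endothelium and fibroblasts, LUM was at 0, PTPRC, CD3E and DCN had at most 2 counts in a library, and PECAM1 (1.09 to 7.99 CPM) and COL1A1 (2.64 to 15 CPM) were detected. Between 2 libraries of the same condition, the chi-square of counts over genes, divided by its degrees of freedom, was 2.10 to 12.3, where counting error alone gives about 1. The siHP1γ Dex replicate 1 library stood apart most, at 7.38 and 12.3 from replicates 2 and 3, which were 3.23 from each other. In bulk RNA, fewer cells that express a gene and less of its RNA per cell cannot be told apart.

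The siHP1γ and siPRMT5 cells were set against the same siNS libraries, so values of both depletions are given side by side and their likeness was not tested. Differences are log2 fold changes with their standard error (SE), tested in edgeR's quasi-likelihood fit of 15298 genes with Benjamini-Hochberg adjustment over all of them, written below as the edgeR adjusted p. A depletion difference was called at an adjusted p under 0.05, and a Dex response at an adjusted p under 0.01 with at least a 1.5-fold change.

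After Dex in siNS cells, 3 of the 32 members rose and 4 fell. MMP19, ADAMTS9 and ADAMTSL4 were the members that rose, and MMP1, ADAMTS1, ADAMTS6 and ADAM19 those that fell. Members thus had 9.38% higher and 12.5% lower calls, where 1.65% of all tested genes were called higher and 1.06% lower. The median log2 difference was -0.17 over the members and 0.00 over all genes tested. In siHP1γ cells, Dex gave 2 members called higher (background 1.01%) and 3 called lower (background 0.66%). The higher calls in siHP1γ cells fell to 0 without siHP1γ Eth replicate 1, siHP1γ Eth replicate 2, siHP1γ Dex replicate 2 or siHP1γ Dex replicate 3, and to 1 without any 1 of siNS Dex replicates 1 to 3, siHP1γ Eth replicate 3, siPRMT5 Eth replicate 2 or siPRMT5 Dex replicate 1. All 5 calls together fell to 2 without siHP1γ Eth replicate 1 and to 3 without siHP1γ Eth replicate 3 or siHP1γ Dex replicate 2. In siPRMT5 cells it gave 3 called higher (background 2.69%) and 7 called lower (background 2.75%), the latter being ADAM19, TIMP3, MMP9, ADAMTS12, MMP14, MMP16 and ADAM8. The Dex response itself differed between siPRMT5 and siNS cells for 7 members (21.9%, background 3.8%) and between siHP1γ and siNS cells for 1 member (3.12%, background 0.399%).

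The counts for PRMT5 depletion include ADAMTS15, which was chosen for its rise there. PRMT5 depletion without Dex gave 15 members called higher, or 46.9%, where 20.6% of all genes were. It gave 6 members called lower, or 18.8%, against 21.6% of all genes. With Dex the counts were 7 higher and 7 lower, each 21.9% of the members, against 20.6% and 21.9% of all genes. HP1γ depletion gave 11 members called higher without Dex and 11 with Dex, or 34.4% each, where 16.5% and 11.7% of all genes were called higher. Without Dex the 11 higher calls fell to 5 without siNS Eth replicate 3 and to 7 without siHP1γ Eth replicate 3. With Dex they fell to 7 without siNS Dex replicate 3, and stood at 9 without siHP1γ Dex replicate 1. HP1γ depletion gave 4 called lower in each condition, or 12.5%, against 15.2% and 12.3% of all genes, and the 4 with Dex fell to 2 without siNS Dex replicate 1 and with DESeq2. With scaling by library size alone, the share of higher calls over all genes moved from 48.7% to 69.2% for HP1γ depletion with Dex and from 52.1% to 63.8% without Dex. The members then split 11 higher to 2 lower with Dex and 11 to 4 without Dex.

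**Figure D1:**
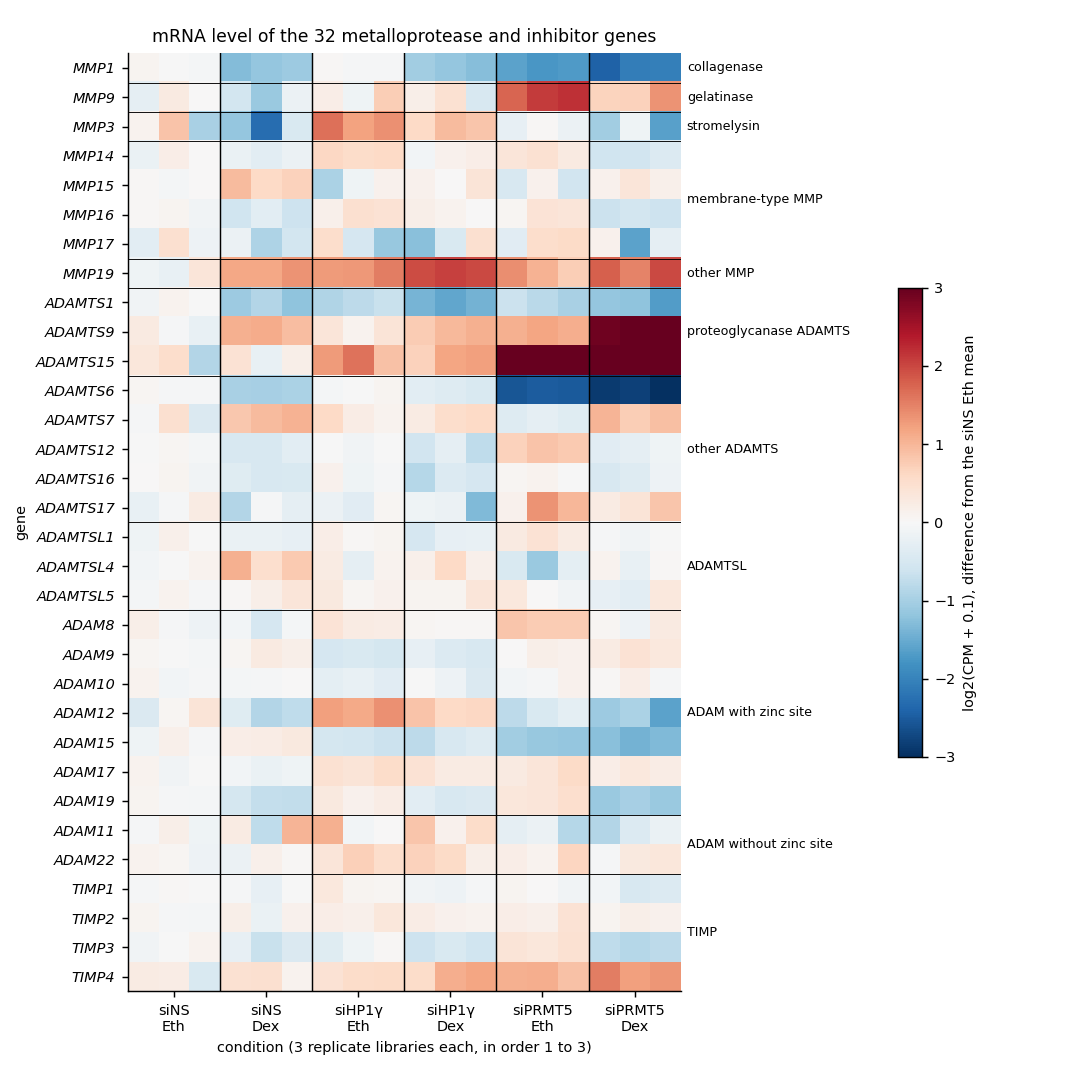
Level of each of the 32 genes (rows, grouped by role) in each of the 18 libraries (columns), as log2(CPM + 0.1) minus the mean of the 3 siNS Eth libraries, on a colour scale that ends at -3 and 3. ADAMTS15 and ADAMTS6 stand out in all 6 siPRMT5 libraries, high and low respectively, ADAMTS9 in the 3 siPRMT5 Dex libraries, and MMP19 is above the siNS Eth mean in every library of the other 5 conditions.

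ADAMTS15, ADAMTS9 and ADAMTS1 are proteoglycanases, enzymes known to cleave aggrecan and versican. ADAMTS15 lies on chr11:130448645-130476645 (hg38, GENCODE 44, plus strand), where the annotation lists no overlapping gene. Its levels in siNS cells were 1.32, 1.53 and 0.518 CPM with Eth and 1.41, 0.872 and 1.18 CPM with Dex. In siHP1γ cells ADAMTS15 read 2.65, 3.37 and 1.98 CPM with Eth and 1.73, 2.44 and 2.54 CPM with Dex. The siPRMT5 libraries held 13.8, 11.7 and 11.9 CPM with Eth and 12.4, 11 and 14.4 CPM with Dex. All 6 siPRMT5 libraries were above all 12 others, and all 6 siHP1γ libraries lay between the siNS and the siPRMT5 ones without overlap. The difference after PRMT5 depletion, by which the gene was chosen, was 11-fold without Dex and 10.6-fold with Dex.

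Other contrasts of ADAMTS15 were tested, but most share libraries with the contrast by which the gene was chosen. The HP1γ contrasts use the same siNS libraries, and the Dex contrasts in siNS and siPRMT5 cells also use libraries of that choice. Their p-values are therefore not independent of the choice. After HP1γ depletion ADAMTS15 rose, by a log2 difference of 1.24 ± 0.32 (edgeR adjusted p = 0.00381) without Dex and 0.91 ± 0.31 (edgeR adjusted p = 0.035) with Dex. The call with Dex was lost without siNS Dex replicate 2 (edgeR adjusted p = 0.131), siNS Dex replicate 3 (edgeR adjusted p = 0.0863), siHP1γ Dex replicate 2 (edgeR adjusted p = 0.0943) or siHP1γ Dex replicate 3 (edgeR adjusted p = 0.0982). Dex left no detectable difference in ADAMTS15 in any background, with log2 differences of 0.06 ± 0.37 in siNS, -0.27 ± 0.26 in siHP1γ and 0.00 ± 0.16 in siPRMT5 cells (edgeR adjusted p = 0.948, 0.669 and 0.997). Of its chromosomal neighbours after PRMT5 depletion without Dex, PRDM10 rose by a log2 difference of 0.33 ± 0.09 (edgeR adjusted p = 0.00366) and APLP2 by 0.38 ± 0.06 (edgeR adjusted p = 1.23e-05), while ZBTB44 and SNX19 were at -0.03 and 0.08 and did not pass. With Dex, APLP2 rose by 0.16 ± 0.06 (edgeR adjusted p = 0.0356) and ZBTB44 by 0.26 ± 0.08 (edgeR adjusted p = 0.0154), and PRDM10 and SNX19, at 0.21 and 0.13, did not pass. After HP1γ depletion APLP2, ZBTB44 and SNX19 were also called higher, by 0.37, 0.23 and 0.50 without Dex and 0.18, 0.34 and 0.31 with Dex. PRDM10, at 0.15 without and -0.12 with Dex, did not pass there. ADAMTS8, the proteoglycanase gene next to ADAMTS15, had 7 counts in the 3 siPRMT5 Dex libraries together and 0 in the other 15, where a count of 0 allows at most 0.241 to 0.346 CPM per library (3 counts, counting error only).

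ADAMTS9, which cleaves versican and aggrecan, was highest in siPRMT5 cells with Dex. ADAMTS9 in siNS cells read 6.84, 5.50 and 4.87 CPM with Eth and 11.9, 12.3 and 10.9 CPM with Dex. After HP1γ depletion it read 7.32, 6.08 and 7.48 CPM with Eth and 9.76, 11.2 and 12 CPM with Dex. After PRMT5 depletion ADAMTS9 read 11.9, 13 and 12.3 CPM with Eth and 43.6, 47.8 and 55.7 CPM with Dex. Dex libraries lay above Eth libraries in all 3 backgrounds, and the siPRMT5 Dex libraries stood above every other library. The Dex response was a log2 difference of 1.03 ± 0.15 (edgeR adjusted p = 1.79e-05) in siNS, 0.66 ± 0.14 (edgeR adjusted p = 0.00384) in siHP1γ and 1.98 ± 0.11 (edgeR adjusted p = 6.03e-13) in siPRMT5 cells. The call in siHP1γ cells was lost without siHP1γ Eth replicate 1 (edgeR adjusted p = 0.0113), siHP1γ Eth replicate 2 (edgeR adjusted p = 0.0384), siHP1γ Dex replicate 2 (edgeR adjusted p = 0.0161) or siHP1γ Dex replicate 3 (edgeR adjusted p = 0.0237). The response in siPRMT5 cells exceeded that in siNS cells by 0.95 ± 0.19 (edgeR adjusted p = 0.005). PRMT5 depletion raised ADAMTS9 by 1.11 ± 0.15 (edgeR adjusted p = 1.29e-06) without Dex and by 2.07 ± 0.11 (edgeR adjusted p = 1.82e-13) with Dex, whereas differences after HP1γ depletion did not pass (0.28 ± 0.16 without and -0.09 ± 0.13 with Dex). The antisense RNA ADAMTS9-AS2, which overlaps the gene, had mean levels of 0.409 to 0.647 CPM across the conditions.

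ADAMTS1, also known as an inhibitor of angiogenesis, was lower with Dex. In siNS cells ADAMTS1 read 20.6, 24 and 22.2 CPM with Eth and 10.3, 12.1 and 9.61 CPM with Dex. The siHP1γ libraries read 11.9, 12.9 and 14.1 CPM with Eth and 8.42, 7.53 and 8.27 CPM with Dex, and the siPRMT5 libraries 14.1, 12.7 and 11.3 CPM with Eth and 9.87, 9.54 and 6.90 CPM with Dex. The siNS Eth libraries were the highest of all, and with Dex the siPRMT5 libraries overlapped the siNS libraries. ADAMTS1 fell with Dex in siNS cells by a log2 difference of -1.07 ± 0.13 (edgeR adjusted p = 6.42e-07) and in siHP1γ cells by -0.68 ± 0.14 (edgeR adjusted p = 0.00179). The call in siHP1γ cells was lost without siHP1γ Eth replicate 3 (edgeR adjusted p = 0.021) or siHP1γ Dex replicate 2 (edgeR adjusted p = 0.0151). In siPRMT5 cells its difference of -0.52 ± 0.14 (edgeR adjusted p = 0.0098) fell short of the 1.5-fold limit. Without Dex it fell after both depletions, by -0.78 ± 0.12 (edgeR adjusted p = 2.34e-05) for HP1γ and -0.81 ± 0.12 (edgeR adjusted p = 7.89e-06) for PRMT5. With Dex the difference for HP1γ, -0.39 ± 0.14 (edgeR adjusted p = 0.0421), was lost without siNS Dex replicate 1 (edgeR adjusted p = 0.0737), siNS Dex replicate 2 (edgeR adjusted p = 0.169), siHP1γ Dex replicate 1 (edgeR adjusted p = 0.0621), siHP1γ Dex replicate 2 (edgeR adjusted p = 0.127) or siHP1γ Dex replicate 3 (edgeR adjusted p = 0.0633), and it was also lost with library size scaling alone (edgeR adjusted p = 0.107) and DESeq2 (adjusted p = 0.0672). The PRMT5 difference with Dex was -0.26 ± 0.14 and did not pass.

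**Figure D2:**
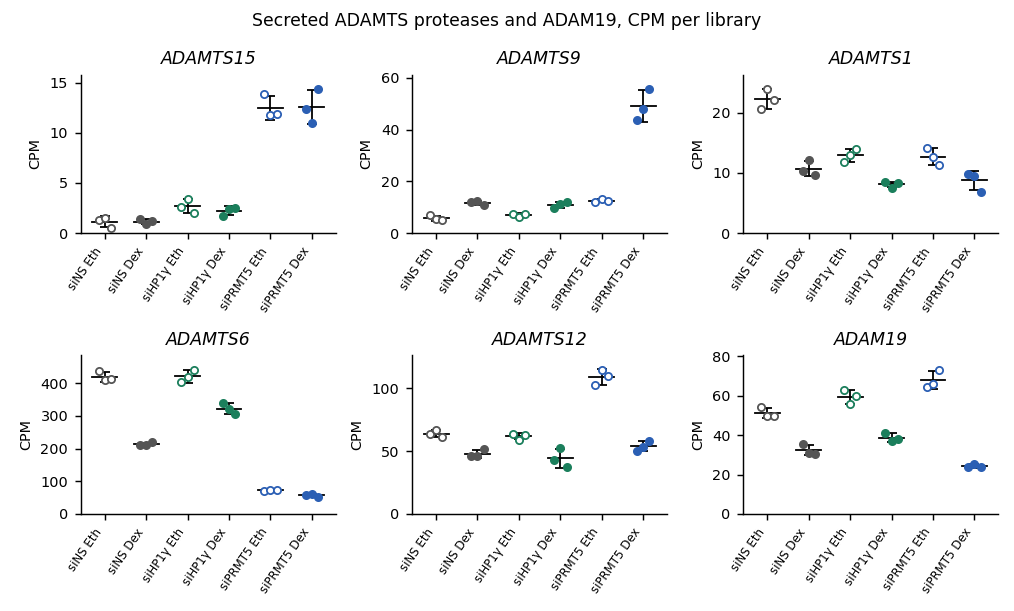
CPM per library (points: open, Eth; filled, Dex; grey, siNS; green, siHP1γ; blue, siPRMT5) with the mean and SD of 3 libraries (black), for 5 secreted ADAMTS proteases and ADAM19, on linear axes from 0. The 3 siPRMT5 Dex libraries of ADAMTS9 lie at 43.6 to 55.7 CPM, above all others, and the 6 siPRMT5 libraries of ADAMTS6 lie at 51.8 to 74.0 CPM, below all others.

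ADAMTS6 and ADAMTS12 are shown with their promoters because both had a Dex response that PRMT5 depletion altered and each holds 1 of the motifs searched. The windows come from RefSeq (GRCh38.p14) and cover 250 bases before to 50 bases after the annotated start, 5′ to 3′ on the gene's minus strand. Capitals mark the match, the cyclic AMP response element TGACGTCA in ADAMTS6 (first base at -7 from the start) and the stretch TGAATCA in ADAMTS12 (first base at -84). TGAATCA matches TGANTCA, a loose form of the AP-1 element that allows any base at N, so it need not be an AP-1 site. The ADAMTS6 window is chr5:65481871-65482170 and the ADAMTS12 window chr5:33891941-33892240.
ADAMTS6: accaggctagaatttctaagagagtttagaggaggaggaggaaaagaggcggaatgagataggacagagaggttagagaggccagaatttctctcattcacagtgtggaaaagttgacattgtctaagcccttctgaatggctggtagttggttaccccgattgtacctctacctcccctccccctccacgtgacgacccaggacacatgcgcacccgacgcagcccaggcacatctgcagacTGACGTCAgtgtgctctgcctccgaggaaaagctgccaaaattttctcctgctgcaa
ADAMTS12: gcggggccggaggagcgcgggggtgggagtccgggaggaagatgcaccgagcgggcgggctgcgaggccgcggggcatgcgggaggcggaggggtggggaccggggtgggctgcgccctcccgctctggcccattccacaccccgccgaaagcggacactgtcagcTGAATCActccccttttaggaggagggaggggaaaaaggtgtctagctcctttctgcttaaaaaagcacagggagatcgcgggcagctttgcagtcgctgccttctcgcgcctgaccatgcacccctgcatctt

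Promoters of 19 of the 32 members were in the RefSeq table, and ADAM9, ADAM11, ADAMTS1, ADAMTS9, ADAMTS15, ADAMTS16, MMP1, MMP3, MMP9, MMP16, MMP17, MMP19 and TIMP2 had no entry there. Both strands were searched. TGACGTCA stood in 1.98% of the 27305 promoters of the table and in 1 of the 19, TGANTCA in 7.76% and in 1 of the 19, and the GR element core ACANNNTGT in 5.45% and in 1 of the 19 (ADAM8, first base at -184). TATAAA stood in 12% of all promoters and in 0 of the 19. Promoters of the 19 had a median GC content of 71%, against 58.3% over the table. These are letter matches in a short window and describe no binding.

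ADAMTS6, a secreted protease known for its part in fibrillin microfibrils, had the largest fall after PRMT5 depletion of the 32 members. ADAMTS6 in siNS cells read 438, 411 and 412 CPM with Eth and 212, 212 and 219 CPM with Dex. In siHP1γ cells it read 404, 419 and 441 CPM with Eth and 339.8, 321 and 307 CPM with Dex. In siPRMT5 cells ADAMTS6 read 70.6, 74 and 73.6 CPM with Eth and 57.8, 59.8 and 51.8 CPM with Dex. The siNS and siHP1γ libraries overlapped with Eth and separated with Dex, where the siNS libraries were lower, and the siPRMT5 libraries were below all others in both. After PRMT5 depletion ADAMTS6 fell by a log2 difference of -2.53 ± 0.07 (edgeR adjusted p = 2.1e-19) without Dex and -1.92 ± 0.07 (edgeR adjusted p = 4.33e-17) with Dex. HP1γ depletion gave 0.00 ± 0.06 without Dex, which did not pass, and a rise of 0.59 ± 0.06 (edgeR adjusted p = 1.64e-07) with Dex. The Dex response was -0.97 ± 0.06 (edgeR adjusted p = 1.48e-11) in siNS cells, against -0.38 ± 0.06 in siHP1γ and -0.36 ± 0.07 in siPRMT5 cells, both short of 1.5-fold. The response differed from that in siNS cells by 0.58 ± 0.09 (edgeR adjusted p = 0.00108) with HP1γ depleted and by 0.61 ± 0.10 (edgeR adjusted p = 0.000483) with PRMT5 depleted.

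ADAMTS12 and ADAMTS7 are close relatives known to cleave cartilage oligomeric matrix protein. ADAMTS12 in siNS cells read 63.3, 66.7 and 61.3 CPM with Eth and 45.9, 45.9 and 51.5 CPM with Dex. The siHP1γ libraries read 63.4, 59.1 and 63 CPM with Eth and 42.8, 52.5 and 37.2 CPM with Dex, overlapping siNS under both treatments. In siPRMT5 cells ADAMTS12 read 102, 115 and 109.6 CPM with Eth and 50.3, 53.2 and 57.9 CPM with Dex. The siPRMT5 Eth libraries were the highest of all, and with Dex the siPRMT5 libraries overlapped the siNS libraries. ADAMTS12 rose after PRMT5 depletion without Dex by a log2 difference of 0.77 ± 0.09 (edgeR adjusted p = 1.9e-07), and the difference with Dex, 0.17 ± 0.10, did not pass. Its fall with Dex was -1.02 ± 0.09 (edgeR adjusted p = 4.04e-09) in siPRMT5 cells, where the siNS difference of -0.42 ± 0.10 was short of 1.5-fold, and the responses differed by -0.60 ± 0.13 (edgeR adjusted p = 0.00897). ADAMTS7 passed the Dex rule in siPRMT5 cells, where it rose from 1.22 ± 0.0592 to 3.03 ± 0.306 CPM (SD, n = 3) by a log2 difference of 1.29 ± 0.26 (edgeR adjusted p = 0.000656). In siNS cells ADAMTS7 stood at 1.64 ± 0.558 CPM with Eth and 3.11 ± 0.267 CPM with Dex (SD, n = 3), a log2 difference of 0.91 ± 0.24 (edgeR adjusted p = 0.0146) that was not called but passed without siNS Eth replicate 2 (log2 difference 1.21, edgeR adjusted p = 0.00488). The responses in siPRMT5 and siNS cells differed by 0.38 ± 0.36 (edgeR adjusted p = 0.632), which did not pass. The annotation holds 3 ADAMTS7 pseudogenes, so how reads were shared with near-identical copies is uncertain.

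ADAMTS17, tied by inherited disease to fibrillin-rich tissue, rose after PRMT5 depletion by 0.92 ± 0.32 (edgeR adjusted p = 0.0221) without Dex and 0.91 ± 0.34 (edgeR adjusted p = 0.035) with Dex, at group means of 3.01 and 2.25 CPM. The former call was lost without siNS Eth replicate 1 (edgeR adjusted p = 0.0774), siNS Eth replicate 2 (edgeR adjusted p = 0.0584), siPRMT5 Eth replicate 2 (edgeR adjusted p = 0.155) or siPRMT5 Eth replicate 3 (edgeR adjusted p = 0.067) and the latter without siNS Dex replicate 1 (edgeR adjusted p = 0.163), siNS Dex replicate 3 (edgeR adjusted p = 0.0616), siPRMT5 Dex replicate 2 (edgeR adjusted p = 0.0514) or siPRMT5 Dex replicate 3 (edgeR adjusted p = 0.131). DESeq2 called neither (adjusted p = 0.0539 and 0.0739). ADAMTS16, at 19.6 to 30.4 CPM by condition, passed no depletion comparison, and its Dex differences of -0.43 ± 0.11, -0.58 ± 0.11 and -0.39 ± 0.11 in siNS, siHP1γ and siPRMT5 cells were not called. The difference in siHP1γ cells was called without siHP1γ Eth replicate 2 (edgeR adjusted p = 0.00151), siHP1γ Dex replicate 2 (edgeR adjusted p = 0.00087) or siHP1γ Dex replicate 3 (edgeR adjusted p = 0.00204).

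Of the 3 ADAMTSL genes, whose products are matrix proteins without protease activity, ADAMTSL4 was the one called with Dex in siNS cells. ADAMTSL4, a fibrillin microfibril protein, rose there from 4.45 ± 0.290 to 7.83 ± 1.57 CPM (SD, n = 3), by a log2 difference of 0.82 ± 0.19 (edgeR adjusted p = 0.00542). This call was lost without siNS Eth replicate 1 (edgeR adjusted p = 0.0301), siNS Eth replicate 2 (edgeR adjusted p = 0.0207), siNS Eth replicate 3 (edgeR adjusted p = 0.0167), siNS Dex replicate 1 (edgeR adjusted p = 0.0652) or siNS Dex replicate 3 (edgeR adjusted p = 0.0188). After PRMT5 depletion ADAMTSL4 fell by -0.86 ± 0.19 (edgeR adjusted p = 0.000659) with Dex, and by -0.58 ± 0.23 (edgeR adjusted p = 0.0484) without Dex, where the call was lost without any 1 of 8 libraries (edgeR adjusted p from 0.0519 to 0.227) and with DESeq2 (adjusted p = 0.0822). Its fall after HP1γ depletion with Dex, -0.51 ± 0.18 (edgeR adjusted p = 0.0401), was lost without siNS Dex replicate 1 (edgeR adjusted p = 0.239), siNS Dex replicate 3 (edgeR adjusted p = 0.0798), siHP1γ Dex replicate 1 (edgeR adjusted p = 0.139) or siHP1γ Dex replicate 3 (edgeR adjusted p = 0.109), and with DESeq2 (adjusted p = 0.0966). ADAMTSL4 overlaps MCL1 on the opposite strand, whose mean was 649 CPM in siNS Eth, 1003 CPM in siNS Dex, 605 CPM in siPRMT5 Eth and 1124 CPM in siPRMT5 Dex. In siHP1γ cells the MCL1 mean was lower than in siNS cells, at 409 CPM with Eth and 585 CPM with Dex. Whether counting used strand is not given in the sources used here, and the part of MCL1 reads in the ADAMTSL4 counts was not tested. ADAMTSL1 rose after PRMT5 depletion without Dex by 0.31 ± 0.09 (edgeR adjusted p = 0.00515), and ADAMTSL5 passed no comparison. Without siPRMT5 Dex replicate 3, ADAMTSL5 was called lower after PRMT5 depletion with Dex (-0.47, edgeR adjusted p = 0.0237).

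MMP1, the interstitial collagenase, fell with Dex in siNS and siHP1γ cells and fell after PRMT5 depletion. MMP1 in siNS cells read 24.2, 22.7 and 22 CPM with Eth and 9.19, 10.1 and 10.8 CPM with Dex. In siHP1γ cells it read 23.4, 22.3 and 22.5 CPM with Eth and 11, 10.2 and 9.40 CPM with Dex. In siPRMT5 cells MMP1 read 7.51, 6.81 and 7.0 CPM with Eth and 4.20, 5.34 and 5.43 CPM with Dex. Eth and Dex libraries did not overlap in any background, the siHP1γ libraries overlapped the siNS libraries, and every siPRMT5 library was below every other library of MMP1. The fall with Dex was a log2 difference of -1.19 ± 0.11 (edgeR adjusted p = 6.19e-09) in siNS and -1.15 ± 0.11 (edgeR adjusted p = 1.62e-08) in siHP1γ cells. In siPRMT5 cells the difference of -0.51 ± 0.14 (edgeR adjusted p = 0.0138) was not called. The response in siPRMT5 cells differed from that in siNS cells by 0.68 ± 0.18 (edgeR adjusted p = 0.0305). That call was lost without any 1 of 6 libraries (edgeR adjusted p from 0.052 to 0.112) and without the filter on low counts (adjusted p = 0.0958). PRMT5 depletion lowered MMP1 by -1.69 ± 0.12 (edgeR adjusted p = 1.23e-11) without Dex and -1.0 ± 0.13 (edgeR adjusted p = 1.01e-06) with Dex, and the HP1γ differences of -0.01 ± 0.10 and 0.03 ± 0.12 did not pass.

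MMP3 (stromelysin-1) and MMP9 (gelatinase B) were called after different depletions. MMP3 stood at 0.414 to 1.73 CPM in siNS Eth, 0.109 to 0.635 CPM in siNS Dex, 2.24 to 3.08 CPM in siHP1γ Eth and 1.42 to 1.86 CPM in siHP1γ Dex libraries. It rose after HP1γ depletion by a log2 difference of 1.30 ± 0.35 (edgeR adjusted p = 0.00637) without Dex and 2.08 ± 0.46 (edgeR adjusted p = 0.00168) with Dex, and the former call was lost without siNS Eth replicate 3 (edgeR adjusted p = 0.0662). After PRMT5 depletion the MMP3 differences were -0.34 ± 0.46 and 0.41 ± 0.60 and did not pass. MMP9 stood at 0.662 to 1.02 CPM in siNS Eth, 0.327 to 0.726 CPM in siNS Dex, 3.0 to 4.10 CPM in siPRMT5 Eth and 1.37 to 2.26 CPM in siPRMT5 Dex libraries, with no overlap between siPRMT5 and siNS. It rose after PRMT5 depletion by 2.1 ± 0.31 (edgeR adjusted p = 4.56e-06) without Dex and 1.59 ± 0.38 (edgeR adjusted p = 0.00146) with Dex, and the HP1γ differences of 0.32 ± 0.39 and 0.72 ± 0.43 did not pass. In siNS cells the Dex difference of MMP9 was not called (-0.92 to -0.42 with 1 library left out). With Dex, MMP9 fell in siPRMT5 cells by -1.15 ± 0.26 (edgeR adjusted p = 0.00258), and the difference from the siNS response did not pass. That Dex call was lost without siPRMT5 Eth replicate 2 (edgeR adjusted p = 0.0131), siPRMT5 Eth replicate 3 (edgeR adjusted p = 0.0205), siPRMT5 Dex replicate 1 (edgeR adjusted p = 0.0201) or siPRMT5 Dex replicate 2 (edgeR adjusted p = 0.025), and with DESeq2 (adjusted p = 0.0226).

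MMP14, the membrane-type enzyme that cleaves collagen at the cell surface and activates pro-MMP2 together with TIMP2, had depletion differences that turned with treatment. MMP14 in siNS cells read 144, 189.7 and 169 CPM with Eth and 145, 133 and 147 CPM with Dex. In siHP1γ cells it read 258, 244 and 254 CPM with Eth and 156, 182 and 191 CPM with Dex. In siPRMT5 cells MMP14 read 213, 230.0 and 202 CPM with Eth and 109.7, 112 and 125 CPM with Dex. In siNS cells the Eth and Dex libraries overlapped, and in siPRMT5 cells the Dex libraries were lower than the Eth libraries and lower than all siNS libraries. Without Dex MMP14 rose after both depletions, by a log2 difference of 0.59 ± 0.09 (edgeR adjusted p = 1.13e-05) for HP1γ and 0.36 ± 0.09 (edgeR adjusted p = 0.00166) for PRMT5. With Dex it rose after HP1γ depletion by 0.31 ± 0.09 (edgeR adjusted p = 0.00974) and fell after PRMT5 depletion by -0.30 ± 0.09 (edgeR adjusted p = 0.00851). The HP1γ call with Dex was lost without siNS Dex replicate 2 (edgeR adjusted p = 0.0689) or siHP1γ Dex replicate 3 (edgeR adjusted p = 0.054). Its Dex response was -0.24 ± 0.09 in siNS cells, not called, and -0.90 ± 0.09 (edgeR adjusted p = 1.72e-08) in siPRMT5 cells, a difference of -0.66 ± 0.12 (edgeR adjusted p = 0.00296). MMP2, the enzyme that MMP14 activates, had 2 counts over all 18 libraries and was under the minimum.

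MMP16, another membrane-type enzyme, read 21.6, 22.5 and 19.8 CPM in siNS Eth and 14.1, 17 and 13.7 CPM in siNS Dex. After HP1γ depletion MMP16 read 23.5, 29.8 and 29 CPM with Eth and 24, 23.1 and 21.3 CPM with Dex. In siPRMT5 cells it read 22, 28.3 and 27.4 CPM with Eth and 13.6, 14.5 and 13.8 CPM with Dex. The siHP1γ libraries lay above the siNS libraries under both treatments, and the siPRMT5 libraries overlapped them. MMP16 rose after HP1γ depletion by 0.62 ± 0.12 (edgeR adjusted p = 0.00029) with Dex and by 0.37 ± 0.11 (edgeR adjusted p = 0.0128) without Dex, a call lost without siNS Eth replicate 3 (edgeR adjusted p = 0.0895), siHP1γ Eth replicate 2 (edgeR adjusted p = 0.0738) or siHP1γ Eth replicate 3 (edgeR adjusted p = 0.0634). The call after PRMT5 depletion without Dex, 0.28 ± 0.11 (edgeR adjusted p = 0.0489), was lost without any 1 of 14 libraries (edgeR adjusted p from 0.0512 to 0.199) and with DESeq2 (adjusted p = 0.0728). MMP16 fell with Dex in siPRMT5 cells by -0.89 ± 0.12 (edgeR adjusted p = 2.71e-06). In siNS cells its Dex libraries also lay below its Eth libraries, but the difference was not called (-0.62 to -0.46 with 1 library left out). It was called without siNS Dex replicate 2 (edgeR adjusted p = 0.00269). The responses in siPRMT5 and siNS cells did not differ by the test of their difference. MMP15 and MMP17, also membrane-type, passed no comparison, at condition means of 1.75 to 3.68 CPM and 0.466 to 0.898 CPM. With at least 10 counts in every library, MMP15 was called lower with Dex after HP1γ (edgeR adjusted p = 0.0413) and PRMT5 depletion (edgeR adjusted p = 0.0395). The former also passed without any 1 of 3 libraries and the latter without any 1 of 2. With the compared conditions alone the latter passed too (edgeR adjusted p = 0.0432).

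MMP19, which is known to act on basement membrane proteins, was higher with Dex and after either depletion. MMP19 in siNS cells read 3.09, 2.85 and 4.35 CPM with Eth and 7.68, 7.63 and 8.71 CPM with Dex. In siHP1γ cells it read 8.27, 8.51 and 9.91 CPM with Eth and 13.3, 14.3 and 13.6 CPM with Dex. In siPRMT5 cells MMP19 read 9.02, 7.04 and 5.70 CPM with Eth and 11.9, 9.62 and 13.6 CPM with Dex. The siNS Eth libraries were the lowest of all, and the siHP1γ and siPRMT5 Dex libraries were above the siNS Dex libraries. MMP19 rose with Dex by a log2 difference of 1.22 ± 0.19 (edgeR adjusted p = 6.68e-05) in siNS, 0.62 ± 0.15 (edgeR adjusted p = 0.00964) in siHP1γ and 0.68 ± 0.16 (edgeR adjusted p = 0.00357) in siPRMT5 cells. The call in siHP1γ cells was lost without any 1 of 11 libraries (edgeR adjusted p from 0.0115 to 0.0589) and the call in siPRMT5 cells without siPRMT5 Eth replicate 2 (edgeR adjusted p = 0.0167), siPRMT5 Eth replicate 3 (edgeR adjusted p = 0.0392), siPRMT5 Dex replicate 1 (edgeR adjusted p = 0.0133) or siPRMT5 Dex replicate 3 (edgeR adjusted p = 0.0269). DESeq2 did not call the response in siHP1γ cells (adjusted p = 0.013). After HP1γ depletion MMP19 rose by 1.37 ± 0.19 (edgeR adjusted p = 5.06e-06) without Dex and 0.77 ± 0.15 (edgeR adjusted p = 0.000435) with Dex. After PRMT5 depletion it rose by 1.07 ± 0.20 (edgeR adjusted p = 0.000112) without Dex and 0.53 ± 0.16 (edgeR adjusted p = 0.00745) with Dex.

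**Figure D3:**
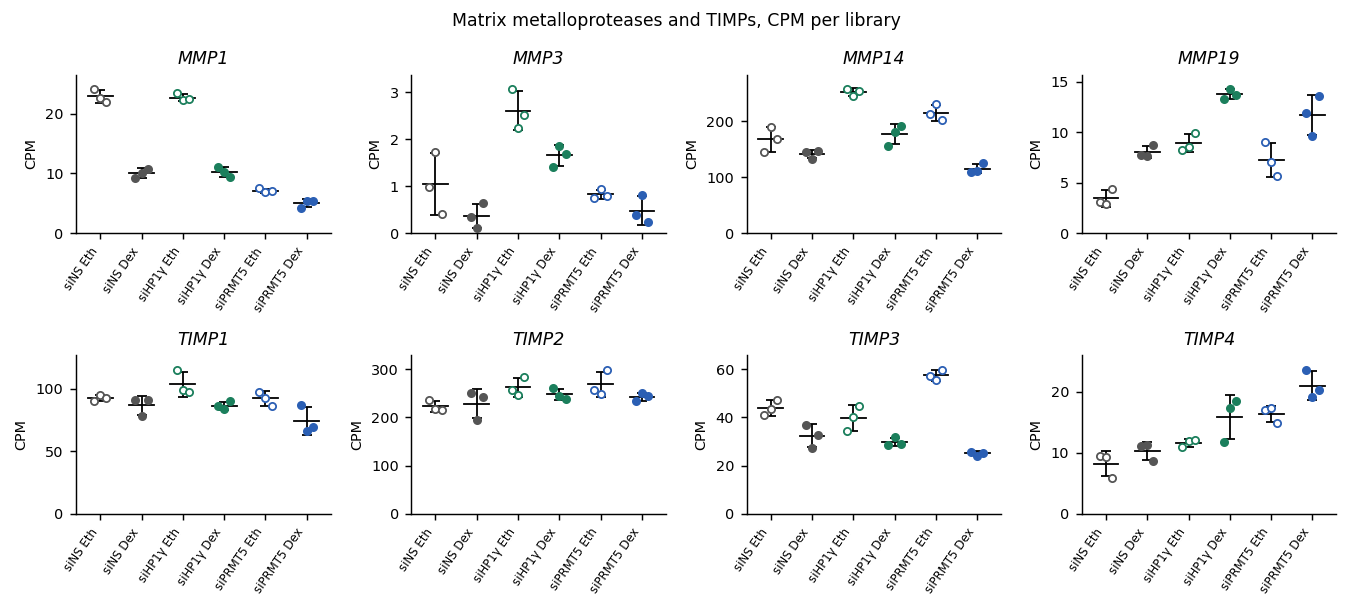
CPM per library (points: open, Eth; filled, Dex; grey, siNS; green, siHP1γ; blue, siPRMT5) with the mean and SD of 3 libraries (black), for 4 MMPs (upper row) and the 4 TIMPs (lower row), on linear axes from 0. The Dex libraries of MMP1 lie below its Eth libraries in each background, the siPRMT5 libraries of MMP14 and TIMP3 lie above siNS with Eth and below siNS with Dex, and the TIMP1 libraries of most conditions overlap.

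ADAM12, ADAM19 and ADAM15 changed most among the ADAMs. ADAM12, known to release HB-EGF from the cell surface, read 3.42, 4.89 and 6.11 CPM in siNS Eth and 3.62, 2.51 and 2.72 CPM in siNS Dex. In siHP1γ cells ADAM12 read 11, 10.5 and 12.3 CPM with Eth and 8.50, 7.14 and 7.24 CPM with Dex, and in siPRMT5 cells 2.68, 3.40 and 3.80 CPM with Eth and 2.15, 2.38 and 1.47 CPM with Dex. All 6 siHP1γ libraries stood above all 12 others. ADAM12 rose after HP1γ depletion by a log2 difference of 1.22 ± 0.18 (edgeR adjusted p = 7.94e-06) without Dex and 1.36 ± 0.20 (edgeR adjusted p = 1.14e-05) with Dex. Its difference after PRMT5 depletion was -0.55 ± 0.22 (edgeR adjusted p = 0.0475) without Dex, a call lost without any 1 of 7 libraries (edgeR adjusted p from 0.0509 to 0.287) and with DESeq2 (adjusted p = 0.0904), and -0.54 ± 0.25 with Dex, which did not pass.

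ADAM19, a sheddase known for neuregulin, read 54.4, 49.9 and 49.5 CPM in siNS Eth and 35.6, 31.2 and 30.6 CPM in siNS Dex. The siHP1γ libraries of ADAM19 read 62.7, 55.7 and 59.9 CPM with Eth and 41.2, 36.9 and 37.8 CPM with Dex. After PRMT5 depletion it read 64.6, 65.7 and 73.2 CPM with Eth and 23.8, 25.6 and 23.7 CPM with Dex. Dex libraries were below Eth libraries in each background, with the siPRMT5 libraries at both ends of the range. The fall with Dex was -0.66 ± 0.09 (edgeR adjusted p = 3.18e-06) in siNS, -0.62 ± 0.08 (edgeR adjusted p = 8.46e-06) in siHP1γ and -1.48 ± 0.09 (edgeR adjusted p = 8.07e-13) in siPRMT5 cells, and the last exceeded the first by -0.82 ± 0.12 (edgeR adjusted p = 0.000261). In siHP1γ cells ADAM19 fell short of the 1.5-fold limit without siHP1γ Eth replicate 1 (edgeR adjusted p = 0.000182) or siHP1γ Dex replicate 2 (edgeR adjusted p = 0.000193). PRMT5 depletion raised ADAM19 by 0.41 ± 0.08 (edgeR adjusted p = 0.000252) without Dex and lowered it by -0.41 ± 0.09 (edgeR adjusted p = 0.000582) with Dex. HP1γ depletion gave 0.21 ± 0.08 (edgeR adjusted p = 0.0492) without Dex and 0.25 ± 0.09 (edgeR adjusted p = 0.0347) with Dex. Without the filter on low counts neither passed (edgeR adjusted p = 0.129 and 0.119). The first of these calls was lost without any 1 of 15 libraries (edgeR adjusted p from 0.0517 to 0.203) and the second without siNS Eth replicate 3 (edgeR adjusted p = 0.0505), siNS Dex replicate 2 (edgeR adjusted p = 0.13), siNS Dex replicate 3 (edgeR adjusted p = 0.145) or siHP1γ Dex replicate 1 (edgeR adjusted p = 0.136).

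ADAM15, which carries an integrin-binding motif, read 53.8, 64.7 and 57.2 CPM in siNS Eth and 67.3, 68.3 and 71.2 CPM in siNS Dex. In siHP1γ cells ADAM15 read 40.5, 39.7 and 37.3 CPM with Eth and 34.1, 41.7 and 44.4 CPM with Dex. In siPRMT5 cells it read 28.2, 26.3 and 26.2 CPM with Eth and 24.5, 21.7 and 23.3 CPM with Dex. The 3 backgrounds did not overlap, with siNS highest and siPRMT5 lowest under both treatments. ADAM15 fell after HP1γ depletion by -0.58 ± 0.09 (edgeR adjusted p = 2.48e-05) without Dex and -0.79 ± 0.09 (edgeR adjusted p = 3.48e-07) with Dex. After PRMT5 depletion it fell by -1.12 ± 0.10 (edgeR adjusted p = 6.44e-10) without Dex and -1.57 ± 0.10 (edgeR adjusted p = 1.03e-12) with Dex. The Dex response of ADAM15 was called in none of the 3 backgrounds (0.23 ± 0.09, 0.03 ± 0.09 and -0.22 ± 0.10 in siNS, siHP1γ and siPRMT5 cells). The difference between the siPRMT5 and siNS responses of ADAM15 did not pass (-0.52 to -0.38 with 1 library left out). It passed without siNS Eth replicate 2 (edgeR adjusted p = 0.0287) or siHP1γ Dex replicate 1 (edgeR adjusted p = 0.026), and with the compared conditions alone (edgeR adjusted p = 0.0404).

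ADAM10 and ADAM17 are the main cell surface sheddases, acting on Notch and on TNF and EGFR ligands. ADAM17 rose after HP1γ depletion by 0.46 ± 0.08 (edgeR adjusted p = 9.47e-05) without Dex and 0.45 ± 0.08 (edgeR adjusted p = 0.000211) with Dex, and after PRMT5 depletion by 0.40 ± 0.08 (edgeR adjusted p = 0.000268) and 0.38 ± 0.08 (edgeR adjusted p = 0.000464). ADAM10 fell after HP1γ depletion without Dex by -0.29 ± 0.09 (edgeR adjusted p = 0.0136), a call lost without siNS Eth replicate 1 (edgeR adjusted p = 0.0636) or siHP1γ Eth replicate 3 (edgeR adjusted p = 0.0546), and its PRMT5 differences were 0.01 ± 0.09 and 0.10 ± 0.09. ADAM9 fell after HP1γ depletion by -0.50 ± 0.08 (edgeR adjusted p = 3.56e-05) without Dex and -0.55 ± 0.08 (edgeR adjusted p = 1.09e-05) with Dex, from means of 69.6 and 78.5 CPM in siNS cells. ADAM8, known from leukocytes and inflamed tissue, rose after PRMT5 depletion without Dex by 0.79 ± 0.13 (edgeR adjusted p = 3.6e-05) and fell with Dex in siPRMT5 cells by -0.73 ± 0.13 (edgeR adjusted p = 0.00018). ADAM22 and ADAM11 have no functional zinc site and are known as adhesion receptors of neurons. ADAM22 rose after HP1γ depletion by 0.55 ± 0.17 (edgeR adjusted p = 0.0155) without Dex and 0.51 ± 0.17 (edgeR adjusted p = 0.0292) with Dex. The former call was lost without siNS Eth replicate 3 (edgeR adjusted p = 0.0886) or siHP1γ Eth replicate 2 (edgeR adjusted p = 0.0854), and the latter without siNS Dex replicate 1 (edgeR adjusted p = 0.129), siNS Dex replicate 3 (edgeR adjusted p = 0.065), siHP1γ Dex replicate 1 (edgeR adjusted p = 0.141) or siHP1γ Dex replicate 2 (edgeR adjusted p = 0.0832) and with DESeq2 (adjusted p = 0.059). ADAM11 was not called against siNS cells or with Dex. Without siNS Dex replicate 2, it was called lower after PRMT5 depletion with Dex (-1.28, edgeR adjusted p = 0.0268).

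Among the 4 inhibitors, TIMP4 rose after both depletions and TIMP3 turned with treatment after PRMT5 depletion. TIMP1 in siNS cells read 90.5, 95.2 and 92.6 CPM with Eth and 90.9, 78 and 91.5 CPM with Dex. Its siHP1γ libraries read 115, 98.9 and 97.3 CPM with Eth and 86.1, 83.6 and 90.0 CPM with Dex, and the siPRMT5 libraries 97.8, 93 and 86.4 CPM with Eth and 87.4, 66.5 and 69.6 CPM with Dex. TIMP1 passed none of the depletion or Dex comparisons, and its lowest depletion difference was -0.22 ± 0.09 (edgeR adjusted p = 0.0542) for PRMT5 depletion with Dex. Without siPRMT5 Dex replicate 1 that difference was -0.35 (edgeR adjusted p = 0.00402), and without siNS Dex replicate 2 it was -0.29 (edgeR adjusted p = 0.0233), both past the threshold. It also passed without the filter on low counts (edgeR adjusted p = 0.0461) and with its compared conditions alone (edgeR adjusted p = 0.0452).

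TIMP2, the partner of MMP14 in pro-MMP2 activation, read 236, 218 and 214 CPM in siNS Eth and 250.4, 194 and 242 CPM in siNS Dex. In siHP1γ cells TIMP2 read 256, 247 and 283 CPM with Eth and 260.2, 244 and 239 CPM with Dex. In siPRMT5 cells it read 257, 249 and 299 CPM with Eth and 234, 249.7 and 245 CPM with Dex. Both depletions without Dex lay above siNS, and with Dex the groups overlapped. TIMP2 rose without Dex by 0.23 ± 0.08 (edgeR adjusted p = 0.0366) after HP1γ and 0.27 ± 0.09 (edgeR adjusted p = 0.0128) after PRMT5 depletion. The HP1γ call was lost without any 1 of 6 libraries (edgeR adjusted p from 0.0509 to 0.199) and the PRMT5 call without siNS Eth replicate 3 (edgeR adjusted p = 0.0596) or siPRMT5 Eth replicate 3 (edgeR adjusted p = 0.114).

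TIMP3, which binds the matrix and also inhibits ADAM17 and ADAMTS enzymes, read 40.8, 43.4 and 47.2 CPM in siNS Eth and 36.9, 27.5 and 32.6 CPM in siNS Dex. The siHP1γ libraries of TIMP3 read 34.1, 40.3 and 44.6 CPM with Eth and 28.3, 31.7 and 29.1 CPM with Dex. In siPRMT5 cells it read 57, 55.3 and 59.7 CPM with Eth and 25.8, 24.1 and 25.3 CPM with Dex. The siPRMT5 libraries were the highest with Eth and the lowest with Dex. TIMP3 rose after PRMT5 depletion without Dex by 0.39 ± 0.10 (edgeR adjusted p = 0.0025) and fell with Dex by -0.37 ± 0.11 (edgeR adjusted p = 0.00627). The call with Dex was lost without siNS Dex replicate 1 (edgeR adjusted p = 0.0787). Its fall with Dex was -1.19 ± 0.10 (edgeR adjusted p = 1.59e-09) in siPRMT5 cells, where the siNS difference of -0.44 ± 0.10 was short of 1.5-fold, and the responses differed by -0.76 ± 0.15 (edgeR adjusted p = 0.00322).

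TIMP4 read 9.49, 9.38 and 5.80 CPM in siNS Eth and 11.1, 11.2 and 8.62 CPM in siNS Dex. In siHP1γ cells TIMP4 read 10.9, 11.9 and 12.1 CPM with Eth and 11.8, 17.3 and 18.4 CPM with Dex. In siPRMT5 cells it read 17, 17.3 and 14.9 CPM with Eth and 23.6, 19.1 and 20.3 CPM with Dex. Each depletion lay above siNS under both treatments without overlap. TIMP4 rose after PRMT5 depletion by 0.99 ± 0.17 (edgeR adjusted p = 4.9e-05) without Dex and 1.02 ± 0.16 (edgeR adjusted p = 1.01e-05) with Dex. After HP1γ depletion it rose by 0.50 ± 0.18 (edgeR adjusted p = 0.0337) without Dex and 0.61 ± 0.16 (edgeR adjusted p = 0.0072) with Dex. The HP1γ call without Dex was lost without siNS Eth replicate 3 (edgeR adjusted p = 0.268), siHP1γ Eth replicate 1 (edgeR adjusted p = 0.052), siHP1γ Eth replicate 2 (edgeR adjusted p = 0.0812) or siHP1γ Eth replicate 3 (edgeR adjusted p = 0.0976), and the one with Dex without siNS Dex replicate 3 (edgeR adjusted p = 0.06). TIMP1, TIMP3 and TIMP4 lie inside introns of synapsin genes, and SYN1, SYN2 and SYN3 had condition means of at most 0.559 CPM.

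**Figure D4:**
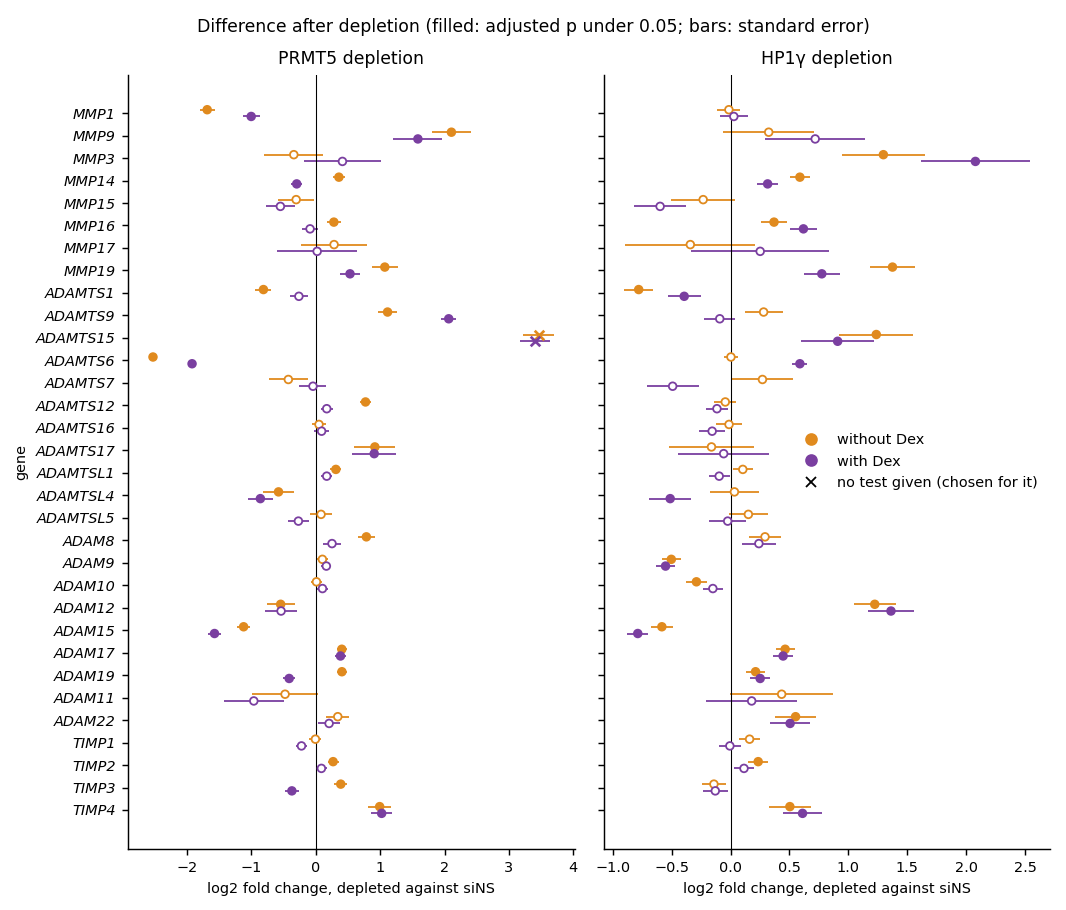
Log2 fold change against siNS (points, with SE bars) of each member after PRMT5 depletion (left) and HP1γ depletion (right), without Dex (orange) and with Dex (purple), filled where the edgeR adjusted p was under 0.05. The crosses of ADAMTS15 after PRMT5 depletion are descriptions with no test, and MMP14, ADAM19 and TIMP3 have filled points on both sides of 0 in the left panel.

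Of the 7 members whose Dex response PRMT5 depletion altered, ADAM19, TIMP3, MMP14 and ADAMTS12 fell more with Dex in siPRMT5 than in siNS cells, ADAMTS9 rose more, and ADAMTS6 and MMP1 fell less. ADAM19, TIMP3 and MMP14 were higher than in siNS without Dex and lower than in siNS with Dex. ADAMTS6 was the member whose Dex response HP1γ depletion altered. ADAMTS6, MMP1 and ADAMTS9 had siPRMT5 levels far from siNS without Dex, and a log2 response compares ratios and not amounts. The mean of MMP1 was 23 CPM with Eth and 10.0 CPM with Dex in siNS cells, and 7.11 and 4.99 CPM in siPRMT5 cells.

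**Figure D5:**
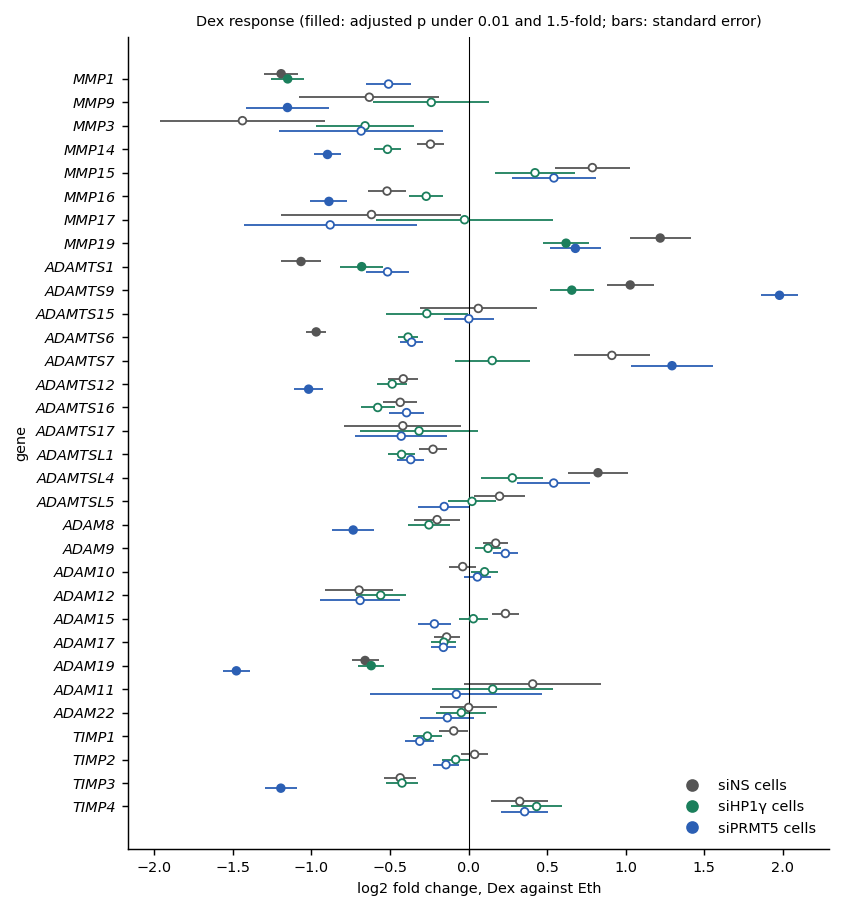
Log2 fold change of Dex against Eth (points, with SE bars) of each member in siNS (grey), siHP1γ (green) and siPRMT5 cells (blue), filled where the edgeR adjusted p was under 0.01 with at least a 1.5-fold change. ADAMTS9 and MMP19 have filled points right of 0 in all 3 backgrounds. TIMP3, MMP14, ADAMTS12, MMP16, MMP9 and ADAM8 have a filled point left of 0 in siPRMT5 cells alone. Of these, the difference from the siNS response passed its own test for TIMP3, MMP14 and ADAMTS12.

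Set against each other, siPRMT5 and siHP1γ cells differed in 18 members with Dex (56.2%, background 49.9%) and in 19 without Dex (59.4%, background 48.4%). Both counts include ADAMTS15, whose own difference is a description. With Dex the 9 members called higher in siPRMT5 cells fell to 5 without siHP1γ Dex replicate 3 and stood at 6 without siHP1γ Dex replicate 1. Without Dex the 8 called lower fell to 5 without siHP1γ Eth replicate 1. With scaling by library size alone, the members with Dex split 5 higher to 11 lower in siPRMT5 cells, where TMM scaling gave 9 and 9. Over all genes, the share of calls that were higher moved in the same direction, from 48.85% to 39.53%. ADAMTS6 was lower in siPRMT5 cells by a log2 difference of -2.53 ± 0.07 (edgeR adjusted p = 1.33e-19) without Dex and -2.51 ± 0.07 (edgeR adjusted p = 2.02e-19) with Dex. ADAM12 was lower there by -1.77 ± 0.19 (edgeR adjusted p = 2.55e-08) and -1.90 ± 0.21 (edgeR adjusted p = 4.8e-08), and MMP3 by -1.64 ± 0.37 (edgeR adjusted p = 0.00079) and -1.66 ± 0.44 (edgeR adjusted p = 0.00256). MMP1 was lower by -1.67 ± 0.12 (edgeR adjusted p = 8.39e-12) and -1.03 ± 0.13 (edgeR adjusted p = 3.75e-07). ADAMTS9 was higher in siPRMT5 cells by 0.83 ± 0.14 (edgeR adjusted p = 2.91e-05) without Dex and 2.16 ± 0.11 (edgeR adjusted p = 5.6e-14) with Dex, and ADAM9 by 0.60 ± 0.08 (edgeR adjusted p = 9.61e-07) and 0.71 ± 0.08 (edgeR adjusted p = 4.11e-08). MMP19, ADAM17, TIMP1 and TIMP2 did not pass in either, with differences of -0.30, -0.06, -0.17 and 0.03 without Dex.

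Genes that act on these enzymes were counted from a list of 15 involved in their activation, maturation and clearance, all 15 tested. Dex in siNS cells called none of the 15, where 1.65% of all genes were called higher and 1.06% lower. TSPAN15 (0.54 ± 0.13, edgeR adjusted p = 0.00614) and RHBDF2 (0.53 ± 0.13, edgeR adjusted p = 0.0095) passed the p limit there but were short of 1.5-fold. After HP1γ depletion without Dex 8 of the 15 were higher and 0 lower, where 16.5% and 15.2% of all genes were. With Dex 2 were higher and 1 lower, where 11.7% and 12.3% of all genes were. After PRMT5 depletion 5 were higher and 3 lower without Dex, against 20.6% and 21.6% of all genes. With Dex 3 were higher and 4 lower, against 20.6% and 21.9% of all genes. FURIN, the convertase that removes the inhibitory prodomain of many of these enzymes, rose after HP1γ depletion by 0.36 ± 0.08 (edgeR adjusted p = 0.00182) with Dex and fell after PRMT5 depletion by -0.37 ± 0.09 (edgeR adjusted p = 0.000982) with Dex. TSPAN15, a tetraspanin partner of ADAM10, rose after PRMT5 depletion by 1.41 ± 0.12 (edgeR adjusted p = 8.02e-10) without Dex and 0.60 ± 0.11 (edgeR adjusted p = 0.000115) with Dex. RHBDF2 and FRMD8, which ADAM17 needs to reach the surface, fell after PRMT5 depletion with Dex by -0.67 ± 0.13 (edgeR adjusted p = 0.000211) and -0.70 ± 0.12 (edgeR adjusted p = 4.12e-05), while RHBDF1, of the same role, rose by 0.57 ± 0.10 (edgeR adjusted p = 6.65e-05). LRP1, the endocytic receptor that clears several of the enzymes, rose without Dex after HP1γ depletion by 0.95 ± 0.14 (edgeR adjusted p = 9.15e-06) and after PRMT5 depletion by 0.96 ± 0.14 (edgeR adjusted p = 4.33e-06).

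Of 6 other inhibitors, 3 were tested. RECK, a membrane-anchored MMP inhibitor, rose after PRMT5 depletion by 0.38 ± 0.10 (edgeR adjusted p = 0.00474) without Dex and 0.51 ± 0.10 (edgeR adjusted p = 0.000169) with Dex, and PAPLN fell by -0.87 ± 0.26 (edgeR adjusted p = 0.00805) and -1.87 ± 0.27 (edgeR adjusted p = 3.16e-06). After HP1γ depletion and after Dex in siNS cells none of the 3 was called. Over all genes, HP1γ depletion gave 16.5% higher and 15.2% lower without Dex, and 11.7% and 12.3% with Dex. Dex in siNS cells gave 1.65% and 1.06%. Of 7 other metzincins 4 were tested, and BMP1, the procollagen C-proteinase, rose after HP1γ depletion without Dex by 0.62 ± 0.20 (edgeR adjusted p = 0.018) and after PRMT5 depletion by 1.03 ± 0.19 (edgeR adjusted p = 0.000109) without Dex and 0.52 ± 0.17 (edgeR adjusted p = 0.0166) with Dex. PAPPA, which cleaves IGF-binding proteins, rose after HP1γ depletion by 1.57 ± 0.34 (edgeR adjusted p = 0.000796) and 1.27 ± 0.37 (edgeR adjusted p = 0.0144). PAPPA2 was called lower after PRMT5 depletion without Dex, where the metzincin list thus had 1 higher and 1 lower call. PRMT5 depletion gave 20.6% higher and 21.6% lower over all genes without Dex, and 20.6% and 21.9% with Dex. Of 7 proteoglycans known as substrates of ADAMTS enzymes or related to them, HSPG2 (perlecan) was the one tested. HSPG2 rose with Dex in siNS cells by 0.70 ± 0.15 (edgeR adjusted p = 0.00229) and fell after PRMT5 depletion by -0.55 ± 0.17 (edgeR adjusted p = 0.0107) without Dex and -1.27 ± 0.16 (edgeR adjusted p = 3.7e-07) with Dex, and after HP1γ depletion with Dex by -0.85 ± 0.15 (edgeR adjusted p = 0.000129).

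The 39 symbols under the minimum included 13 with 0 counts in all 18 libraries, among them MMP7, MMP11, ADAMTS5 and ADAMTS10, and 26 with at least 1 count. MMP13 and MMP10, other enzymes of the collagenase and stromelysin groups, had means of 0.12 and 0.194 CPM, and MMP8 had 1 count in all. ADAMTS4 and ADAMTS20, both proteoglycanases, had 7 counts and 1 count over the 18 libraries.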

How the data were processed

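Per the labels, total RNA of MDA-MB-231 cells was made into Lexogen RNA-seq libraries. The authors deposited raw counts per gene symbol for each of 18 libraries (submitters' processing notes: hg38, Bowtie2 2.4.2, HTSeq 0.9.1). The annotation and the strand setting of the counting are not given in the sources used here. A table of the authors' own fold changes and p-values was not used.

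Counts were tested in edgeR 4.0.16 (R 4.3.3) with TMM scaling (factors 0.969 to 1.04), low counts removed by filterByExpr over the 6 conditions and a mean fitted for each condition (residual degrees of freedom, 12). This left 15298 genes. CPM used library totals times the TMM factor, except for the minimum of 0.5, which used plain totals. Depth was 8682992 to 12472381 reads per library. Reads over exon junctions can be lost, because Bowtie2 does not split reads. The study states fold limits of both 1.5 and 2 for Dex, with an adjusted p limit of 0.01, and here 1.5 was used. Its limit of 0.05 for the depletions was also applied to the differences between Dex responses and between depletions, for which it gives no rule. Alternatives were DESeq2 1.42.0, other scalings and filters, a replicate block, the compared conditions alone, a fold limit of 2, and each library left out. The script was tested on simulated data.

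The members and lists were chosen with earlier results of these data known. Values in every library were given for ADAMTS15, the TIMPs, members whose Dex response was altered, and, in each of 5 comparisons (Dex in siNS, each depletion with and without Dex), the 4 called members with a mean of at least 5 CPM and the largest log2 fold change. Other members were named under their role. Positions are from GENCODE 44, promoters from RefSeq. Protein sequences were not used here, and the ADAMs were split by their zinc site from open reading frames of GENCODE transcripts. A gene left out of the name pattern is not reported here.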

Additional observations from a re-analysis of the deposited data

Results flagged for a closer look

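Each of these 8 results is a Dex response that differed between depleted and siNS cells in edgeR's quasi-likelihood test of the difference itself, with Benjamini-Hochberg adjustment over 15298 genes. The value is the log2 response in depleted cells minus that in siNS cells.

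ADAMTS6 had a difference of 0.58 with HP1γ depleted (edgeR adjusted p = 0.00108) and 0.61 with PRMT5 depleted (edgeR adjusted p = 0.000483). With any 1 library left out these stayed between 0.55 and 0.63 and between 0.57 and 0.67, all past the threshold. ADAM19 differed by -0.82 (edgeR adjusted p = 0.000261), TIMP3 by -0.76 (edgeR adjusted p = 0.00322), MMP14 by -0.66 (edgeR adjusted p = 0.00296) and ADAMTS12 by -0.60 (edgeR adjusted p = 0.00897), all for PRMT5 depletion. With 1 library left out, the largest adjusted p was 0.00191 for ADAM19, 0.0191 for TIMP3, 0.0153 for MMP14 and 0.0454 for ADAMTS12. ADAMTS9 differed by 0.95 (edgeR adjusted p = 0.005), and the largest adjusted p with 1 library left out was 0.0368. MMP1 differed by 0.68 (edgeR adjusted p = 0.0305), and leaving out 1 library raised its adjusted p to as much as 0.112. With 3 libraries in each condition, no test for a single outlying value of a member was made.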

How the results depend on the processing

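Over 352 pairs of member and comparison, 8 alternative settings gave 2469 values. Of these, 2386 had the same status as the main fit, called or not called, 68 lost a call and 15 gained one. Pairs called in neither fit are among the 2386, so that number does not measure how many calls were kept. A value without an adjusted p counted as not called. Where either fit made a call, 0 were reversed in direction. A change of sign between fits without a call was counted as the same status. With 1 library left out, 6336 values held 6121 of the same status, 177 calls lost and 38 gained. With a fold limit of 2 in place of 1.5, the members called with Dex fell from 7 to 4 in siNS, from 5 to 1 in siHP1γ and from 10 to 6 in siPRMT5 cells, which follows from the stricter limit. With 1 library left out, the count ranged from 2 to 5 for Dex in siHP1γ cells (2 without siHP1γ Eth replicate 1, 3 without siHP1γ Eth replicate 3 or siHP1γ Dex replicate 2) and from 9 to 15 for HP1γ depletion without Dex (9 without siNS Eth replicate 3). Libraries of the same replicate number deviated little in common: over 27 pairs the correlation of deviations ran from -0.131 to 0.172, with 4 above 0.1. Such values cannot settle whether those libraries were prepared together. A replicate block gave 7 members with Dex in siNS, 4 in siHP1γ and 10 in siPRMT5 cells, 15 and 15 for HP1γ depletion with and without Dex, 15 and 20 for PRMT5 depletion, 1 and 7 for the altered Dex responses, and 19 and 18 for PRMT5 against HP1γ depletion. Under it MMP19 with Dex in siHP1γ cells (edgeR adjusted p = 0.0101) and ADAM12 after PRMT5 depletion without Dex (edgeR adjusted p = 0.054) were lost, and TIMP1 after PRMT5 depletion with Dex (edgeR adjusted p = 0.0347) was gained. In PRMT5 against HP1γ depletion, ADAMTSL1 (0.0528) and ADAMTS7 (0.0519) were lost and ADAM19 (0.0473) gained without Dex, and TIMP1 (0.0324) gained with Dex, with edgeR adjusted p in parentheses. Where a call changed under another setting the cause was not tested. With at least 10 counts required in every library, 26 of the 32 could be tested.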
